A study of Homo sapiens with 7 samples.

Results

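Dense clusters of AML1-ETO sites are stretches of the Kasumi-1 genome in which the t(8;21) fusion protein was mapped to several neighbouring positions. They were selected on the AML1-ETO peak positions themselves: the summits were sorted along each chromosome, neighbours 12.5 kb apart or less were chained, and chains of 4 or more summits were kept. Of 18087 AML1-ETO summits, 2625 (14.5%) lay in 522 such clusters. A further 9359 summits (51.7%) had no neighbour within 12.5 kb and are called isolated, and the remaining 6103 lay in 2036 pairs and 677 groups of 3.

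ChIP-seq, in which chromatin is pulled down with an antibody and the attached DNA is sequenced, was carried out in Kasumi-1, an established myeloblast line from acute myeloid leukemia that carries the t(8;21) translocation, with no treatment or second cell line. The fusion was recovered with an antibody to ETO, AML1 with an antibody to its C-terminus, which the fusion lacks, and N-CoR, p300 and H3K4me3 each with an antibody of its own. Per the study's methods 2 biological replicates of each library were pooled before peaks were called, so each antibody has a single list of positions with no error between replicates. The lists hold 11692 AML1, 10004 N-CoR, 11020 p300 and 19632 H3K4me3 peaks beside those of AML1-ETO, with no read counts, heights or scores, so the depth behind a peak is unknown. Libraries of H3K27me3 and of input DNA are not analysed here.

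AML1 (RUNX1) is a DNA-binding factor that is required for the formation of blood stem cells and for myeloid maturation. The fusion keeps its DNA-binding Runt domain and joins it to ETO, a protein that recruits co-repressors such as N-CoR, a scaffold for histone deacetylases, whereas p300 is a histone acetyltransferase associated with active enhancers. H3K4me3 marks the start sites of transcribed genes, and closely spaced binding sites of lineage factors around a gene are a known feature of genes that control cell identity.

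The reference sequence (GRCh37, plus strand) of 2 clusters shows how unlike clusters can be. The first lies over PACSIN2, which encodes a membrane-bending protein of endocytosis, and is the largest cluster in which no member overlapped N-CoR or p300. Its 7 windows of 100 bp follow with the distance from the first summit. Capitals mark the Runx consensus TGTGGT or its reverse complement ACCACA, and the ETS core AGGAAG or its reverse complement CTTCCT.
PACSIN2 cluster, 0 kb, overlapping no other list, chr22:43314781-43314880: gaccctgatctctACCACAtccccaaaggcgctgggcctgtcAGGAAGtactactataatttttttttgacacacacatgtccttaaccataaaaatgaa
PACSIN2 cluster, 4.228 kb, overlapping AML1, chr22:43319009-43319108: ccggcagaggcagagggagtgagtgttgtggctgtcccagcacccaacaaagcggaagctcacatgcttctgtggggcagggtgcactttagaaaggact
PACSIN2 cluster, 12.786 kb, overlapping AML1, chr22:43327567-43327666: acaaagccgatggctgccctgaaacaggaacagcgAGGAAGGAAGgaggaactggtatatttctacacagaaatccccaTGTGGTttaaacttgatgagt
PACSIN2 cluster, 14.82 kb, overlapping AML1, chr22:43329601-43329700: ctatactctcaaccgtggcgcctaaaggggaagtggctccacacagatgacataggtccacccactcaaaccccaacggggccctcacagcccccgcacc
PACSIN2 cluster, 18.85 kb, overlapping no other list, chr22:43333631-43333730: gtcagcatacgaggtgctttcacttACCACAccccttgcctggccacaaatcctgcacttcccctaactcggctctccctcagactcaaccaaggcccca
PACSIN2 cluster, 27.116 kb, overlapping no other list, chr22:43341897-43341996: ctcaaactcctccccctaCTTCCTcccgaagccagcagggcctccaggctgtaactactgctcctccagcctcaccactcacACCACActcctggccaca
PACSIN2 cluster, 27.968 kb, overlapping no other list, chr22:43342749-43342848: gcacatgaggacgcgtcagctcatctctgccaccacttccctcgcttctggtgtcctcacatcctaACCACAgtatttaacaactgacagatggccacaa

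Of these 7 windows, 5 held the Runx consensus and 3 the ETS core. The second cluster lies at IER2, an immediate early gene, and has 6 members that all overlapped N-CoR, more than in any other such cluster except those at MIDEAS and LAIR1, which also have 6. The sequences of 5 of its 6 windows are shown, and the window that touches an untranslated region is left out.
IER2 cluster, 0 kb, overlapping N-CoR and p300, chr19:13262424-13262523: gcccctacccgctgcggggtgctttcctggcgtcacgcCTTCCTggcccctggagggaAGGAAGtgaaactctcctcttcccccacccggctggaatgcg
IER2 cluster, 4.468 kb, overlapping AML1 and N-CoR and p300, chr19:13266892-13266991: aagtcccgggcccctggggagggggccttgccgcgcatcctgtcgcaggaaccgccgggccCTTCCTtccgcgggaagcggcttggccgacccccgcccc
IER2 cluster, 11.482 kb, overlapping N-CoR, chr19:13273906-13274005: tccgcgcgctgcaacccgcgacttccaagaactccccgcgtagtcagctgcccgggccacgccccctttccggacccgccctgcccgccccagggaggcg
IER2 cluster, 13.026 kb, overlapping AML1 and N-CoR, chr19:13275450-13275549: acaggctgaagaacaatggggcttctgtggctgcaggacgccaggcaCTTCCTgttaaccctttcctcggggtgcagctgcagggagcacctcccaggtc
IER2 cluster, 15.988 kb, overlapping N-CoR and p300, chr19:13278412-13278511: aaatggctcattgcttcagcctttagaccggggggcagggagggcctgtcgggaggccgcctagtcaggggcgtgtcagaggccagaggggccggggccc

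None of these 5 windows held the Runx consensus, and 3 held the ETS core. The pair is more extreme than the kinds of cluster it comes from: the Runx consensus was in 38 of 121 windows (31.4%) of the 29 clusters with no member on N-CoR or p300, and in 22 of 116 (18.97%) of the 27 with every member on N-CoR. The median G and C content was 69% in the 5 IER2 windows shown, against 57% in the 7 PACSIN2 windows. The lowest-numbered window of a cluster is the one that comes first in the deposited list. Among these windows of the 12 largest clusters, 3 held the Runx consensus and 5 the ETS core. Of the 3 with the Runx consensus 2 are shown, with one that held neither element.
SEPTIN9, peak number 420, chr17:75441614-75441713: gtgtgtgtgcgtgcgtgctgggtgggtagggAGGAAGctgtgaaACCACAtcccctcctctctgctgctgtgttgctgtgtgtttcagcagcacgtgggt
TRIM8, peak number 7, chr10:104405747-104405846: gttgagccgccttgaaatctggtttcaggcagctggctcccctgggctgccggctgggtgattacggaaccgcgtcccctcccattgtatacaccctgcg
FGR, peak number 1653, chr1:27944952-27945051: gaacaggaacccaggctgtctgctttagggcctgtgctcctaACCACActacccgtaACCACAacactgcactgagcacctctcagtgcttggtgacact

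The SEPTIN9 window held both elements, the FGR window held 2 Runx consensus sites, and the TRIM8 window, peak number 7 of the whole list, held neither. A match is a description of the letters in the window and not a measured contact.

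Clusters were small in number of sites and short on the genome. There were 272 clusters of 4 summits, 115 of 5, 65 of 6, 28 of 7, 24 of 8, 10 of 9, 4 of 10 and a single one each of 11, 12, 13 and 18. The span from first to last summit ranged from 2.54 to 96.3 kb with a median of 15.3 kb, and the 522 spans together covered 8959.7 kb. Neighbouring members lay 0.313 to 12.4 kb apart with a median gap of 3.10 kb. These numbers describe what the rule selected. Just inside the rule lay clusters at FAM53B, RAC2 and IFNAR2, whose widest gaps of 12423, 12420 and 12411 bp still joined them, and the closest gaps that the rule did not join measured 12504, 12506 and 12536 bp. The 677 groups of 3 had a median span of 8032 bp and the 272 clusters of exactly 4 one of 12346.5 bp.

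**Figure D1:**
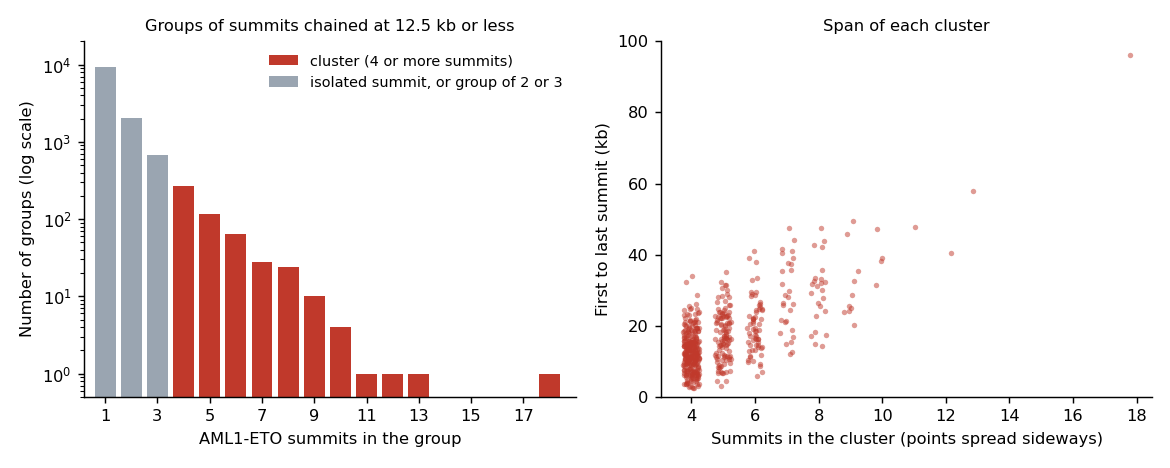
Number of groups by the number of AML1-ETO summits in them (left, log scale, clusters of 4 or more in red) and the span of each of the 522 clusters in kb against its number of summits (right, 1 point per cluster). Counts fall from 9359 isolated summits to 1 cluster of 18, and the spans run from 2.54 to 96.3 kb.

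The same chaining applied to the other lists placed 3.20% of AML1 peaks in 83 clusters, 8.81% of N-CoR peaks in 188, 6.54% of p300 peaks in 154 and 10.6% of H3K4me3 peaks in 430. These lists differ in length, which by itself changes how many peaks chain. Read depth differed as well, and the study's library overview lists the most reads for N-CoR. The part of depth in these values was not tested. Cut to its first 10004 peaks, the length of the N-CoR list, the AML1-ETO list gave 166 clusters with 7.97% of its summits, fewer than the N-CoR list. Clusters of the other proteins often coincided with those of AML1-ETO. An AML1-ETO cluster overlapped 69 of the AML1 clusters (83.1%), 148 of the N-CoR clusters (78.7%) and 78 of the p300 clusters (50.6%), but 55 of the H3K4me3 clusters (12.8%). In turn 148 AML1-ETO clusters (28.4%) overlapped an N-CoR cluster, 77 (14.8%) a p300 cluster, 69 (13.2%) an AML1 cluster and 55 (10.5%) an H3K4me3 cluster.

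Clusters were unevenly spread over the chromosomes. Chromosomes 1, 19 and 17 held 49, 48 and 41 clusters, whereas chromosome 13 held 6 and chromosome Y, with 2 summits, none. The clusters of chromosome 1 held 14.1% of its 1767 summits, close to the 14.5% of the whole list. Those of chromosome 17 held 22.2% of 985 summits. On chromosome 21, which carries RUNX1, 83 of 264 summits (31.4%) lay in 16 clusters, or 6.99 clusters per 100 protein-coding genes, the highest value among the chromosomes. Chromosome 8, which carries the ETO gene, held 25 clusters with 138 of 883 summits (15.6%), or 3.53 per 100 protein-coding genes. Chromosome 19 held 26.9% of its summits in clusters, and chromosomes 13 and 4 held 7.94% and 6.24%. Copy number in Kasumi-1 was not measured here, and its part in these shares was not tested.

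Most clusters sat on genes. Of the 522, 305 touched a single protein-coding gene, 132 touched 2 or more and 85 touched none, and in 186 every member lay within the same gene. A member within 1 kb of a transcription start, called a promoter member below, was present in 381 clusters (73.0%). Among all AML1-ETO summits 34.5% lay at a promoter, and the share was 34.5% (95% interval 32.7 to 36.4) for clustered and 33.7% (32.8 to 34.7) for isolated summits, a difference of 0.77 percentage points (-1.27 to 2.84) whose interval includes 0. This value rested on the settings: it was 7.30 within 2500 bp of a start, 7.01 when summits were chained at 5 kb and -4.58 within classes of G and C content. Outside promoters the groups differed more. Only 9.10% of clustered summits were intergenic against 17.3% of isolated ones, and more lay in introns (42.0% against 38.8%), within 10 kb upstream of a gene (9.30% against 6.41%) and in exons (5.10% against 3.75%). Clustered summits lay a median of 2524 bp from a transcription start and isolated ones 4197 bp.

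The cluster with the most summits lay over and upstream of DENND3, which encodes an activator of the GTPase Rab12, at chr8:142096392-142192755. It counted 18 summits over 96.3 kb, of which 12 overlapped AML1, 12 overlapped N-CoR and 9 overlapped p300. Its first 6 summits lay upstream of the gene, and all 6 overlapped AML1. The DENND3 promoter summit 2 bp from a transcription start, peak number 15852, overlapped none of these 3 lists but was the single member of the 18 with H3K4me3 within 1 kb. The next cluster in size, 13 summits at chr8:145002820-145060717 over PLEC, the gene of the cytoskeletal linker plectin, and PARP10, was different: 7 members overlapped AML1 and 3 each overlapped N-CoR and p300.

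SEPTIN9, which encodes a septin of the cytoskeleton and is a known fusion partner of MLL in leukemia, held 12 summits within 40.6 kb of its introns and internal promoters (chr17:75421271-75461922). Of these, 8 overlapped AML1, 8 overlapped N-CoR and 4 overlapped p300, and 6 held the Runx consensus. All 4 members on p300 also overlapped AML1 and N-CoR. The 11 summits at chr7:155120443-155168333 touched no protein-coding gene, and the nearest start of one, that of INSIG1, a regulator of sterol synthesis, lay 27.2 kb outside the cluster, although a non-coding transcript starts inside it, 3820 bp from the nearest member. Of these 11, 5 overlapped AML1, 7 overlapped N-CoR, 4 overlapped p300 and 4 had H3K4me3 within 1 kb.

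Of the 4 clusters of 10 summits, the one at SUFU and TRIM8 (chr10:104389501-104421080), genes of a Hedgehog pathway inhibitor and a ubiquitin ligase, had 7 members on N-CoR, 5 on AML1 and 4 on p300. In it the 5 members on AML1 lay to either side of 4 members near the TRIM8 start that had H3K4me3 within 1 kb and no AML1. The cluster at BAHCC1, a gene for a chromatin-binding protein, had 7 members on N-CoR, 6 on p300 and only 3 on AML1. At AHDC1 and FGR, the gene of a myeloid Src family kinase, 2 members overlapped AML1, 2 overlapped N-CoR and 0 of 10 overlapped p300. At TNFRSF1B and TNFRSF8, which encode receptors of the tumor necrosis factor family, the counts were 4, 5 and 3 for AML1, N-CoR and p300, and none of the 10 summits lay at a promoter.

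Clusters of 9 among the 12 largest lay at ZBTB7B, a transcription factor gene, with 3, 3 and 2 members on AML1, N-CoR and p300, and at TSPOAP1 and SUPT4H1 with 6, 6 and 5. Another at HOOK2 also touched PRDX2 and JUNB, which encodes an AP-1 subunit, but neither of these held a summit. Its counts were 3, 4 and 3, and those at CSNK1D and SLC16A3, a kinase and a lactate transporter gene, 4, 5 and 6. Over these 12 clusters the share of members on N-CoR ran from 2 of 10 at FGR to 7 of 10 at TRIM8 and BAHCC1. The cluster at DNAJB12 had only 9 summits but ranked just after those at DENND3 and PLEC in length, with 49.3 kb. The closest spacing was found at RPTOR, the gene of a subunit of the mTORC1 kinase, with 5 summits at a mean gap of 769.8 bp, followed by ANXA2R and a site near CERS4 with mean gaps of 846 and 859.7 bp.

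**Figure D2:**
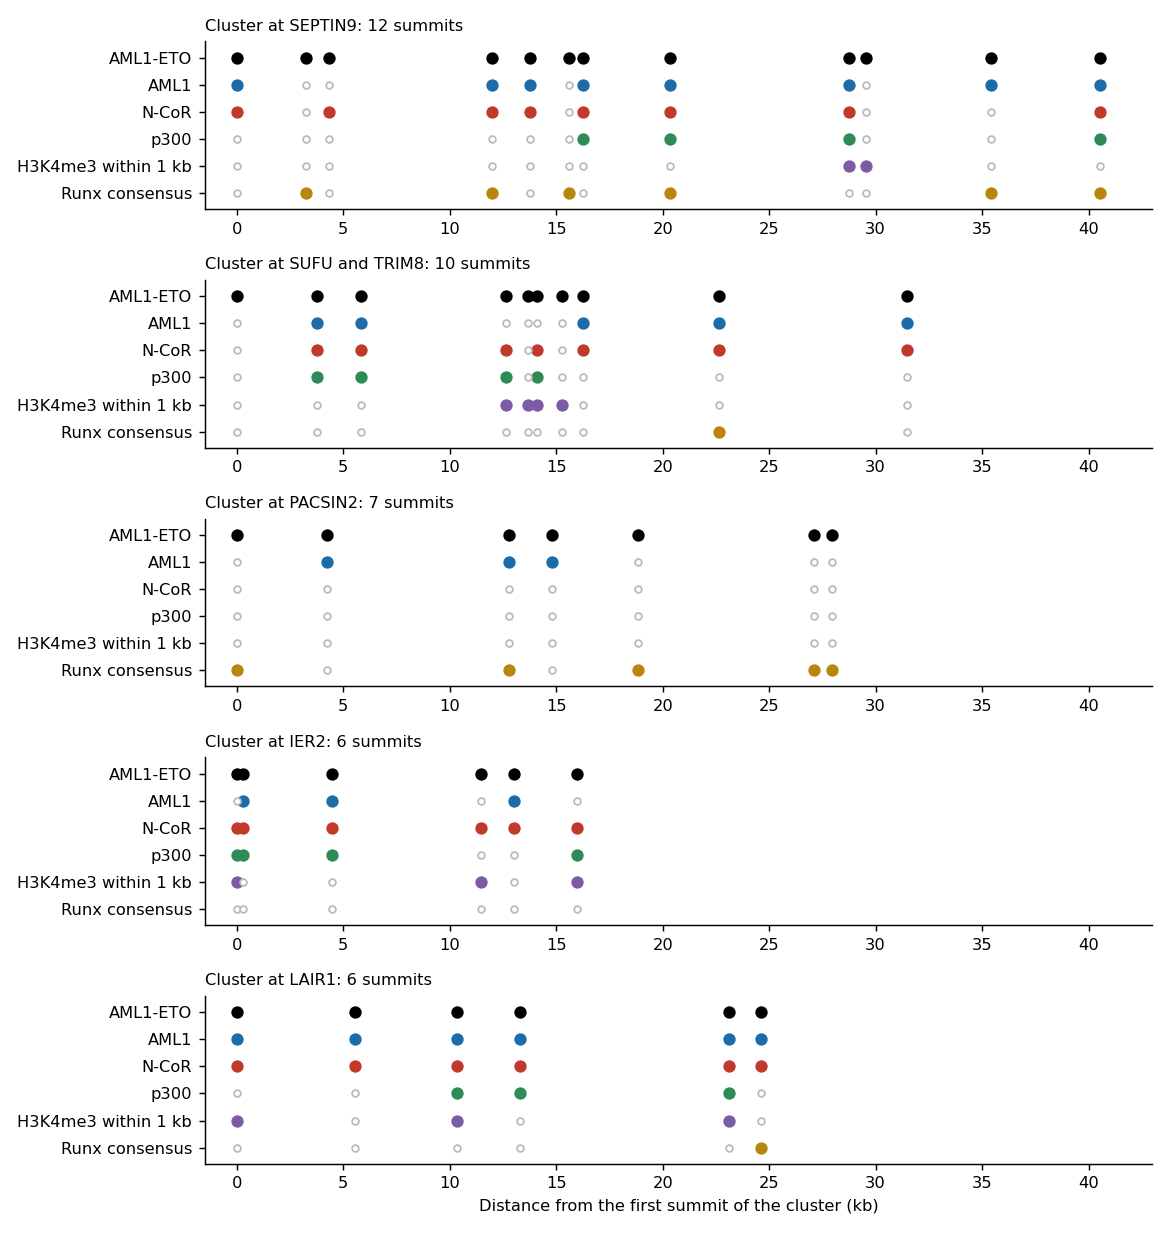
Members of 5 clusters by distance from the first summit in kb, with a row for each list and one for the Runx consensus in the window. A filled point means that the member overlaps that list (for H3K4me3, a summit within 1 kb) or holds the consensus, and an open point that it does not. The PACSIN2 cluster has filled Runx points at 5 of 7 members and none for N-CoR or p300, and the IER2 cluster has N-CoR at 6 of 6 and no Runx consensus.

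N-CoR was found more often in clusters than at isolated sites. Over all AML1-ETO summits 38.9% overlapped an N-CoR window, and the share was 48.9% (1284 of 2625, 95% interval 47.0 to 50.8) in clusters and 32.8% (31.8 to 33.8) for isolated summits. The difference was 16.1 percentage points (Newcombe 95% interval 13.99 to 18.3). Clusters were higher on 23 of the 23 chromosomes that have 20 or more clustered summits. Compared within 10 equal parts of the list in deposited order, the difference was 7.77 points. Seen from the other list, 12.8% of N-CoR peaks, 9.31% of AML1 peaks and 7.25% of p300 peaks overlapped a clustered AML1-ETO window. These are shares of whole lists, which differ in how often they meet AML1-ETO at all. Clustered or not, 7034 AML1-ETO summits overlapped the 10004 N-CoR peaks, 8355 the 11692 AML1 peaks and 3946 the 11020 p300 peaks. The 3 shares therefore do not rank the proteins by their tie to clusters. Intervals here and below cover counting error over peaks only and treat summits as independent, which members of a cluster are not. As there is 1 list per antibody, no test was made and no p-value is given.

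p300 was also more frequent in clusters. It overlapped 21.8% of all AML1-ETO summits, 30.4% (28.7 to 32.2) of clustered and 18.2% (17.4 to 18.99) of isolated ones, a difference of 12.2 points (10.3 to 14.2) with clusters higher on 22 of 23 chromosomes. Most of the excess was at sites that carried both co-regulators. Both were present at 26.0% of clustered and 11.3% of isolated summits, whereas N-CoR without p300 differed little (22.9% and 21.5%) and p300 without N-CoR was less frequent in clusters (4.46% and 6.86%). Among summits on N-CoR, 53.1% (50.3 to 55.9) in clusters and 34.6% (32.9 to 36.3) of the isolated ones were also on p300. Of these summits on N-CoR, 384 of 1284 clustered and 594 of 3069 isolated ones were in the first of the 10 parts of the list. The p300 shares among summits on N-CoR were not compared within parts.

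For AML1 the order was the other way round. AML1 overlapped 46.2% of all AML1-ETO summits, 41.5% (39.6 to 43.4) of clustered and 49.0% (48.0 to 50.0) of isolated ones. The difference was -7.53 points (-9.65 to -5.38), and clusters were higher on 1 of 23 chromosomes. Within the 10 parts of the list the difference was -15.2 points. Where a clustered summit did overlap AML1, N-CoR was present at 78.1% (75.6 to 80.6) of these sites, against 50.0% (48.5 to 51.4) of isolated summits on AML1. Where it did not, the N-CoR shares were 28.2% and 16.3%. List position differed between these sets. Of the summits on AML1, 390 of 1089 clustered and 620 of 4587 isolated ones were in the first part of the list. In that part N-CoR was at 93.4% of all clustered and 89.7% of all isolated summits. The N-CoR shares of summits with and without AML1 were not compared within parts of the list.

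**Figure D3:**
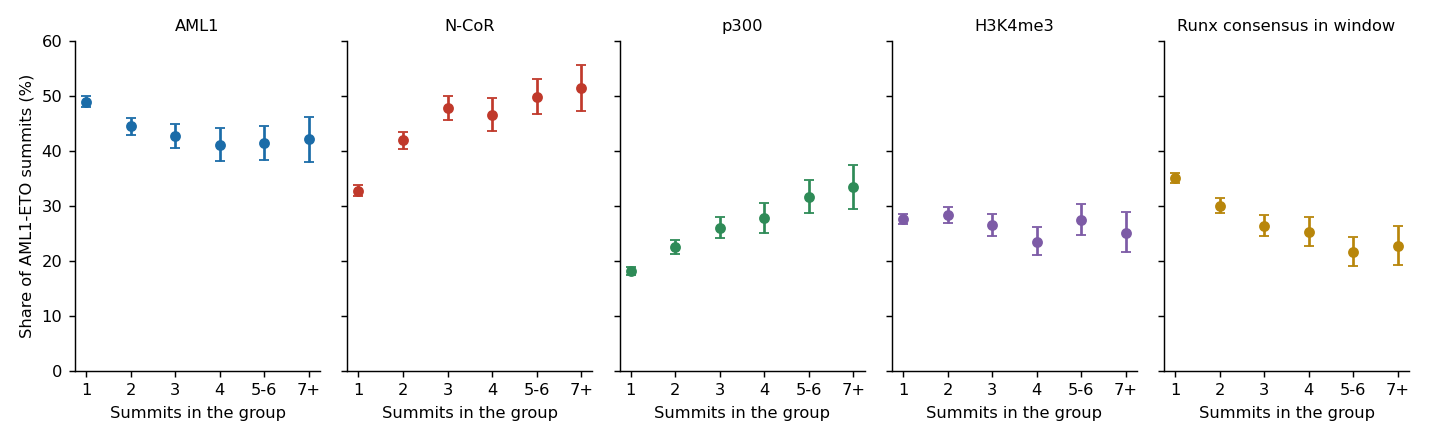
Share of AML1-ETO summits (%) that overlap AML1, N-CoR or p300, have an H3K4me3 summit within 1 kb, or hold the Runx consensus in their window, by the number of summits in the group (1 is isolated, 4 or more a cluster). Bars are exact 95% intervals. N-CoR and p300 rise from 32.8% and 18.2% for isolated summits to 51.6% and 33.4% in clusters of 7 or more, and the Runx consensus falls from 35.1% to 22.7%.

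The shares changed in steps with the number of neighbours, and much of the change lay below the size that defines a cluster. N-CoR was found at 32.8% of isolated summits, 42.0% of summits in pairs, 47.9% in groups of 3, 46.6% in clusters of 4, 49.9% in clusters of 5 or 6 and 51.6% (47.4 to 55.7) in clusters of 7 or more. For p300 the same series was 18.2%, 22.5%, 26.0%, 27.8%, 31.7% and 33.4% (29.5 to 37.4). For AML1 it was 49.0%, 44.5%, 42.7%, 41.2%, 41.5% and 42.1%, with overlapping intervals from groups of 3 upwards. Groups of 3 and clusters of 4 had overlapping intervals in all 3 readouts.

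Position in the deposited list moved with these shares. The list numbers its peaks from 1 upwards, and whether this order reflects their significance is not given in the sources used here. Clustered summits stood earlier in it, with a median number of 7448 against 9874 for isolated ones. When both groups were compared within 10 equal parts of the list, the difference for N-CoR shrank to 7.77 points with clusters higher in 10 of 10 parts, and that for p300 to 9.46 points with clusters higher in 7 of 10. For AML1 it widened to -15.2 points. In the second part of the list N-CoR was at 81.1% of clustered and 65.5% of isolated summits. In the last part its shares were close, at 15.5% (10.9 to 21.1) and 14.6% (12.5 to 16.9). In the first part of the list 94.9% of clustered and 93.7% of isolated summits overlapped AML1, while in the seventh part the shares were 8.92% (5.46 to 13.6) and 35.0% (32.0 to 38.0). p300 was at 66.7% (61.9 to 71.2) of clustered and 41.1% (37.3 to 44.9) of isolated summits in the first part, and at 12.7% of both in the last. The p300 shares of clustered summits were the higher ones in each of the first 6 parts and close to those of isolated summits after that, while the AML1 shares were lower in clusters in every part but the first.

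**Figure D4:**
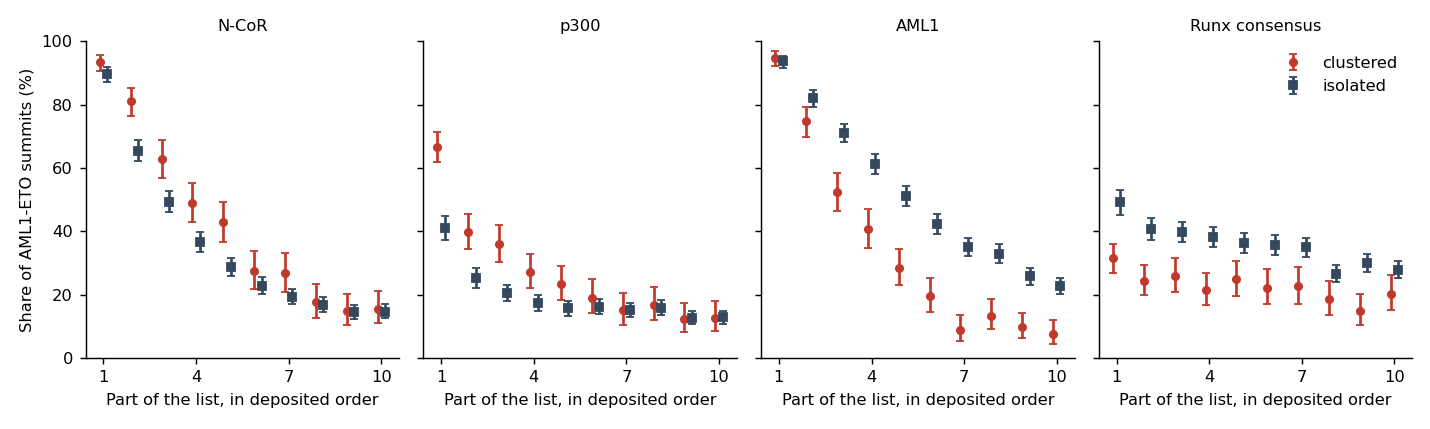
Share (%) of clustered (red circles) and isolated (dark squares) AML1-ETO summits that overlap N-CoR, p300 or AML1 or hold the Runx consensus, in 10 equal parts of the list in deposited order, with exact 95% intervals. Clustered summits are above isolated ones for N-CoR in all 10 parts, and below them for the Runx consensus in all 10.

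Members of a cluster differed with their place in the list. The lowest-numbered member of each cluster overlapped AML1 in 422 of 522 clusters (80.8%), N-CoR in 80.3% and p300 in 49.6%, whereas the other 2103 members did so in 31.7%, 41.1% and 25.7%. List position moves with this contrast, as isolated summits in the first of the 10 parts of the list overlapped AML1 in 93.7%, N-CoR in 89.7% and p300 in 41.1%. The members at the ends of a cluster resembled the inner ones, with N-CoR at 46.5% (43.4 to 49.5) and 50.5% (48.0 to 53.0) and AML1 at 39.8% and 42.6%. At least 1 member overlapped AML1 in 482 clusters (92.3%), N-CoR in 480 (92.0%) and p300 in 405 (77.6%). Every member did so in only 11, 27 and 3 clusters, respectively.

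Over all adjacent members, the share that carried a partner differed by a few points with whether the neighbour carried it. Of 2103 pairs of adjacent members, N-CoR was present at both in 534, at one in 1015 and at neither in 554. A member whose neighbour carried N-CoR carried it in 51.3% of cases, and a member whose neighbour did not in 47.8%. The corresponding values were 32.6% and 30.1% for p300 and 39.3% and 43.8% for AML1. For pairs under 2 kb apart they were 49.4% and 49.2% for N-CoR, 35.7% and 30.9% for p300, and 34.1% and 42.9% for AML1. Among the 272 clusters of exactly 4 summits, 34 had no member on N-CoR, 75 had 1, 79 had 2, 62 had 3 and 22 had all 4.

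A few clusters were uniform in their partners. All members overlapped N-CoR in the clusters of 6 at IER2, MIDEAS, a gene for a subunit of a histone deacetylase complex, and LAIR1, an inhibitory receptor of leukocytes, and in the pair of clusters of 5 at PTK2B, a kinase related to focal adhesion kinase, and NHERF1 and RAB37. At LAIR1 (chr19:54876637-54901340) all 6 members overlapped AML1 as well and 3 overlapped p300. Only at PGS1 and LSM14B, with 4 summits each, did every member overlap both N-CoR and p300. In 29 clusters no member overlapped either co-regulator, and the 5 largest, with ties taken by shorter span, were those at PACSIN2 with 7 summits, around LRRC14 and RECQL4 with 6, and at PRELID3A, RUNX1 and BCOR with 4. H3K4me3 lay within 1 kb of 0 of 7 members at PACSIN2, 5 of 6 around LRRC14 and 3 of 4 at each of PRELID3A, RUNX1 and BCOR, the gene of a BCL6 co-repressor, where the members lie close together. Over all 29 clusters 33 of 121 members (27.3%) had H3K4me3, and 14 clusters had none, so these examples are not typical of the 29.

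RUNX1, the gene of AML1 itself, held 2 clusters of 4 summits that differed in their partners. The one of 2.83 kb at chr21:36260327-36263260 had 3 of 4 members at an internal promoter, of which a single one overlapped AML1, none overlapped N-CoR or p300, and none held the Runx consensus. The other, at chr21:36418714-36423891, had 3 members on AML1, 3 on N-CoR and 2 on p300, and 1 with the Runx consensus. Reads from the t(8;21) derivative chromosomes and from the intact copies cannot be told apart in these positions.

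H3K4me3 differed between clusters and isolated sites in opposite directions at and away from promoters. An H3K4me3 summit lay within 1 kb of 27.4% of all AML1-ETO summits, 25.3% (23.7 to 27.04) of clustered and 27.7% (26.8 to 28.6) of isolated ones, and the difference of -2.36 points (-4.23 to -0.44) reversed to 4.00 with a distance of 2500 bp and to 2.55 when summits were chained at 5 kb. At promoters it was 55.1% in clusters and 72.0% for isolated summits (-17.0 points, -20.6 to -13.4), and away from them 9.66% and 5.11% (4.54 points, 3.12 to 6.12). With the starts of protein-coding genes alone the promoter shares were 60.7% (57.1 to 64.2) and 79.5% (77.9 to 81.0). At these coding promoters H3K4me3 was at 54.9% of clustered summits on AML1 and 64.0% of those without it. Isolated summits had the same order, with 76.5% and 81.6%.

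The excess of co-regulators in clusters was found in both settings. Away from promoters N-CoR was at 51.3% of clustered and 36.1% of isolated summits (15.2 points, 12.6 to 17.9), and p300 at 28.7% and 12.4% (16.3 points, 14.04 to 18.6). At promoters the differences were 18.0 points (14.5 to 21.6) for N-CoR and 4.17 points (0.76 to 7.68) for p300. For AML1 the difference was -9.44 points (-12.1 to -6.78) away from promoters and -3.66 points (-7.22 to -0.019) at promoters.

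Fewer clustered summits held a Runx consensus. TGTGGT was present on either strand in 31.3% of all AML1-ETO windows, in 23.4% (21.7 to 25.02) of clustered and 35.1% (34.2 to 36.1) of isolated ones. The difference of -11.8 points (-13.6 to -9.85) left clusters higher on 0 of 23 chromosomes and in 0 of 10 parts of the list. In windows 1000 bp to either side of the summits the element was found in 6.61% and 6.66% of the sequences, so both groups were above their surroundings. Clustered windows had a median G and C content of 58% against 54%, and within 5 classes of this content the difference was -7.84 points, an alternative chosen after the data had been seen. The deficit was found away from promoters, at 27.2% and 43.5%, and was small at promoters, at 16.0% and 18.7%, where the interval of the difference included 0 (-5.29 to 0.21). Windows with 2 or more sites made up 2.67% of clustered and 5.82% of isolated windows.

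AML1 overlap went with the element in clusters too. Of clustered windows with TGTGGT, 54.3% overlapped AML1 against 37.6% of those without it, and p300 showed the opposite order with 20.7% and 33.4%. The p300 order was the same at isolated sites, with 9.64% and 22.8%. Even among windows with the element, AML1 was less frequent in clusters than at isolated sites, where it was at 63.3%. For windows with the element, N-CoR was at 44.5% (40.6 to 48.6) in clusters and 31.1% (29.5 to 32.7) of isolated sites.

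The hexamer GAGGAA, part of the element bound by the myeloid factor PU.1, was in 26.0% of all windows, 27.7% (25.9 to 29.4) of clustered and 25.4% (24.5 to 26.3) of isolated ones, a difference of 2.28 points (0.38 to 4.23). The ETS core AGGAAG, which shares 5 letters with it, was in 37.5% of all windows, 39.1% of clustered and 36.1% of isolated ones (2.97 points, 0.88 to 5.09). In the sequences 1000 bp away GAGGAA was found in 8.23% and 8.50%, and AGGAAG in 12.9% (12.02 to 13.9) around clustered and 10.1% (9.71 to 10.6) around isolated summits, so the surroundings differed for AGGAAG about as much as the windows did. At promoters the differences were 6.19 points (3.24 to 9.31) for GAGGAA and 9.84 points (6.48 to 13.3) for AGGAAG, and away from promoters 0.37 and -0.42 points with intervals that included 0.

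Genes of the myeloid program were among those with a cluster. A gene was counted when 2 or more summits of a cluster lay in it or within 5 kb, which held for 633 of 20136 protein-coding genes (3.14%). The gene lists were chosen with earlier results of these data known, and their counts are descriptions. Of 32 genes for myeloid signalling proteins and adapters 13 were counted (40.6%), and of 54 blood transcription factors 13 (24.1%). With summits in the gene body alone these counts were 11 and 8, among 416 protein-coding genes in all. Of 31 myeloid surface and growth factor receptors 3 were counted (9.68%), namely ITGB2, SELPLG and CD82. Cell cycle and survival genes gave 1 of 20 (PIM1), co-regulators 1 of 22, lymphoid genes 1 of 25 (CD79A), erythroid genes 0 of 17 and genes of non-blood tissues 1 of 36 (MBP). The genes with a cluster had a median length of 30.7 kb against 27.2 kb for all protein-coding genes.

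**Figure D5:**
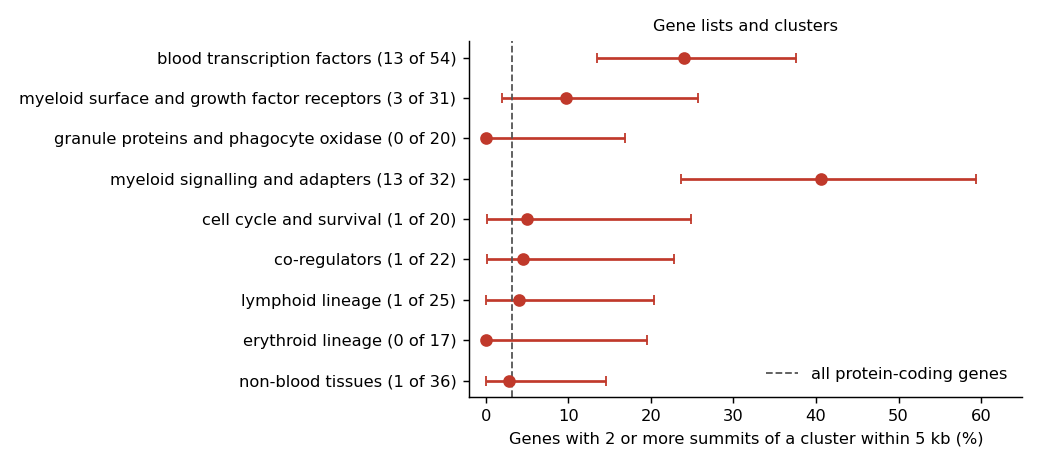
Share (%) of the genes of each list with 2 or more summits of a cluster within 5 kb, with exact 95% intervals, and the share among all protein-coding genes as a dashed line at 3.14%. Myeloid signalling genes (13 of 32) and blood transcription factors (13 of 54) lie above the line, while granule and oxidase genes and erythroid genes stand at 0.

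Granule proteins and the phagocyte oxidase, listed as markers of the labelled myeloblast, gave 0 of 20 (95% interval up to 16.8%), which includes the 3.14% of all protein-coding genes. These genes are short, with a median of 7.49 kb against 47.5 kb for the signalling genes. Among all protein-coding genes, however, the share with a cluster differed little with gene length. It was 2.826% (240 of 8494) under 20 kb, 3.297% for 20 to 80 kb and 3.499% for 80 kb or more. The part of gene length in the empty list was not tested. Of the 20 granule and oxidase genes, 16 had an AML1-ETO summit within 5 kb, against 8332 of the 20136 protein-coding genes (41.4%). By the same count 27 of the 32 signalling genes and 38 of the 54 transcription factors had a summit.

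Among the transcription factors, LYL1, a basic helix-loop-helix factor of blood stem cells, had 5 clustered summits within 6.57 kb (chr19:13208669-13215340), of which 3 overlapped AML1, 4 overlapped N-CoR and 4 overlapped p300. All 4 summits at GFI1, a transcriptional repressor needed for granulocyte formation, were on N-CoR and 3 of them on p300. The LMO2 cluster, at the gene of a bridging protein that acts with LYL1, had 4 members, of which 2 overlapped all of AML1, N-CoR and p300, one of them being peak number 25 of the list, and 2 overlapped none. At SPI1, the gene of PU.1, 7 summits reached over 31.6 kb from an intron of the gene across its start to SLC39A13, a zinc transporter gene (chr11:47398222-47429944), with 3 members each on AML1 and N-CoR, 2 on p300 and 4 near H3K4me3.

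RARA, the gene of the retinoic acid receptor that is rearranged in promyelocytic leukemia, had 8 summits in 27.7 kb, of which 4 overlapped N-CoR and only 1 overlapped AML1. IRF1, an interferon regulatory factor, had 10 clustered summits within its annotated extent in a cluster of 6, with 5 members on N-CoR and 3 on AML1, and a cluster of 4, with 1 on N-CoR and 0 on AML1. IRF8, of the same family, had a cluster of 5 with 2 on N-CoR. FLI1, an ETS factor, had 5 summits with 4 on N-CoR, and CBFA2T3, a paralog of ETO, had 4 with 2 on each of AML1, N-CoR and p300. JUNB, ID1 and KLF2 were counted through clusters of 9, 4 and 4. No summit of these clusters lay in JUNB or ID1 themselves, which were counted by summits within 5 kb.

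Among the signalling genes, TYROBP, which encodes the DAP12 adapter of myeloid receptors, shared a cluster of 6 summits in 10.4 kb with its neighbours HCST and NFKBID (chr19:36389927-36400445). This cluster holds peak numbers 4, 20 and 300, which all overlapped AML1, N-CoR and p300, while the 2 summits at NFKBID overlapped none of them. FGR lay in the cluster of 10 described above, with 2 members on N-CoR, and SLA, the gene of a Src-like adapter, in one of 9 with 5 on AML1 and 4 on N-CoR. At DUSP6, a phosphatase of the ERK pathway, all 4 members overlapped both AML1 and N-CoR. SYK was the other extreme for AML1, with 0 of 4 members on AML1 and 3 on N-CoR. The clusters at RAC2, LAT2 and NOTCH1 had 4 members each on AML1 and 3 each on N-CoR, and those at LCP1, PLCG2, PIK3AP1 and PRKCB had 4, 3, 3 and 2 on N-CoR.

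ITGB2, the gene of the beta chain of the leukocyte integrins, had a cluster of 8 in 17.0 kb with 4 members on AML1, 5 on N-CoR and 4 on p300. SELPLG, the ligand of P-selectin, had 6 with 3, 3 and 1, and CD82, a tetraspanin, 4 with 2 on each of the 3. The clusters counted for CD79A and MBP, genes of other lineages, were not lacking in partners, with 3 of 8 and 3 of 4 members on N-CoR.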

How the data were processed

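The authors aligned the reads to GRCh37 (hg19) with bowtie 0.12.8, allowing up to 2 mismatches, pooled the 2 biological replicates of each library and called peaks with MACS 2.0.10.20131216 at p < 1e-20. The control used in peak calling is not given in the sources used here. The 5 deposited lists hold positions only: windows of 100 bp centred on a summit, and a name numbered in row order. The N-CoR, p300 and H3K4me3 lists carry name prefixes of other libraries, and each list was assigned by its sample's label. Coordinates in the text are counted from 1. Positions do not measure expression, so the cell line was not checked against expressed markers.

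Summits were chained at 12.5 kb. Windows of different lists overlapped when they shared at least 1 bp, and H3K4me3 and promoters were counted within 1 kb of a summit, with transcription starts from GENCODE release 44 lifted to GRCh37. Motifs were counted on either strand of the GRCh37 window. Shares carry exact Clopper-Pearson 95% intervals and differences Newcombe 95% intervals, for counting error only. No test between libraries was possible with 1 list each, and all 2625 members were used without a filter. The members, the 9 gene lists (257 genes, all found in the annotation) and the comparisons were chosen with earlier results of these data known.

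The rule for named genes took the 12 clusters with the most summits, the 3 longest and the 3 with the smallest mean gap, the clusters in which every member or none overlapped N-CoR or p300 (up to 5 of each kind), the list genes with a cluster (up to 8 per list by clustered summits) and the edges of the chaining rule. In addition, the other list genes with a cluster were named, a choice made after their values were seen. Some list genes with a cluster are not reported here by name. The alternatives were other chaining distances and sizes, window widths, distances and motifs, single members per cluster, chromosomes left out, and comparison within parts of the list or classes of G and C content, the last added after seeing the data. The counting was tested on simulated data. The work used Python 3.11.15, numpy 2.4.6, pandas 2.3.3, SciPy 1.17.1, pysam 0.24.0 and matplotlib 3.10.9.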

Additional observations from a re-analysis of the deposited data

How the results depend on the processing

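With 1 list of positions per antibody and no score, the clusters rest on the peak threshold of the authors and on the chaining distance, and no error between replicates can be given. No paired analysis was possible because the replicates were pooled before peaks were called. The differences for N-CoR and p300 (higher in clusters), AML1 and the Runx consensus (lower) kept their sign under every alternative run, with each chromosome left out included.

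The number of clusters was 201 (5.08% of summits) when summits were chained at 5 kb and 854 (26.6%) at 25 kb, 250 (8.50%) with at least 5 summits, and 166 (7.97%) when the list was shortened to the length of the N-CoR list. Chaining at 5 kb gave differences of -9.70 points for AML1, 13.0 for N-CoR, 7.01 for promoters and 2.55 for H3K4me3, the last of which reversed, as it did with H3K4me3 within 2500 bp (4.00). Within parts of the list the values were -15.2 for AML1, 7.77 for N-CoR, 9.46 for p300, -0.39 for H3K4me3 and -13.8 for the Runx consensus. Within classes of G and C content they were -5.23 for AML1, 10.1 for p300, -7.61 for H3K4me3, -4.58 for promoters and -7.84 for the Runx consensus. The N-CoR difference was 13.6 with 1 member per cluster, 13.8 with windows of 25 bp and 18.3 with windows of 250 bp to either side. That for p300 was 16.3 away from promoters, that for promoters 7.30 within 2500 bp of a start, and that for the Runx consensus -13.8 within 100 bp of the summit. Genes with a cluster numbered 416 in the gene body alone and 1018 within 25 kb. By list, the count for blood transcription factors was 8 and 14 under these settings, against 13. That for surface receptors was 6 within 25 kb, against 3, for granule and oxidase genes 1, against 0, and for cell cycle genes 0 and 2, against 1. Signalling genes gave 11 and 14, against 13, and the other lists kept their counts. The causes of these shifts were not tested.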

Other observations

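The first 100 peaks of the AML1-ETO list held 34 clustered and 30 isolated summits, against 14.5% and 51.7% of the whole list. One or more of these 100 peaks lay in 33 clusters. More widely, 282 of the 522 clusters (54.0%) had a member in the first of 10 equal parts of the list. AML1 summits of any position fell within the span of 489 clusters (93.7%), N-CoR summits within 492 (94.3%) and p300 summits within 431 (82.6%), also where no windows overlapped. Overlapping N-CoR summits lay a median of 21 bp from the AML1-ETO summit in clusters and at isolated sites, and p300 summits 27 and 28 bp.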
